A study of Macaca mulatta with 26 samples.

Results

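The data describe 983 back-splice junctions of rhesus monkey (Macaca mulatta) vastus lateralis muscle that were found only in the 2 most deeply sequenced libraries. The members were chosen by their reads: a junction, given by chromosome, start, end and strand, had to be absent from all 24 libraries of approximately 20000000 reads and to reach 3 or more reads summed over the 2 in-depth libraries. They are 983 of 5653 junctions with 3 or more in-depth reads, or 17.4% (95% Wilson interval 16.4 to 18.4%), and 983 of 16568 in-depth junctions of any read number. Absence and read number are thus properties of the selection and are given as a description, with no test.

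A circular RNA forms when a splice donor joins an acceptor that lies upstream of it, so that the ends of 1 or more exons are closed into a ring without a free end. A read that crosses this back-splice junction is the evidence that separates the circle from the linear transcript of the same gene. Intronic circles arise in another way, from an excised intron lariat that is trimmed to the branch point, so that one side of the junction is the donor of the intron and the other lies shortly before its acceptor. Muscle genes are long and have many exons, and one host gene often yields several circles that share an acceptor or a donor.

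Total RNA from each muscle was digested with RNase R, an exonuclease that removes linear RNA, and sequenced without poly(A) selection. The 24 libraries came from 6 young (0.003 to 6 years), 11 middle-aged (11.3 to 16.93 years) and 7 old (25.7 to 40.9 years) monkeys, 1 library per monkey, all on a normal diet. Both in-depth libraries were sequenced to approximately 100000000 reads, one from a young animal of 0.005 years and one from an old animal of 40.1 years. A library of each of these ages is also among the 24, but the labels do not say whether the animals are the same. Of the young, 3 were under 1 year old. Each in-depth library stands alone, so a difference between them has no replicate check and age, animal and library cannot be told apart.

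The in-depth libraries held 60704 (young) and 35205 (old) junction reads, and the 24 libraries held 822 to 11561 each and 99083 in all. Summed reads of the 24 thus nearly matched the 95909 in-depth reads. A junction with 0 reads in all 24 libraries could still make up 0.303 of 10000 junction reads, the share that 3 reads would have. Intervals and limits of this kind cover counting error only.

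The 983 junctions carried 5174 reads, 5.39% (5.25 to 5.54%) of the in-depth junction reads. They made up 5.97% (5.78 to 6.16%) of the reads of the young library and 4.41% (4.20 to 4.63%) of those of the old one. Most were rare: 489 had 3 reads, just inside the limit, 189 had 4, and 79 had 10 or more. Just outside the limit lay 1518 absent junctions with 2 reads and 5848 with 1 read. The share that was absent from the 24 libraries fell with the in-depth reads, from 35.2% of junctions with 3 reads to 4.49% (3.61 to 5.56%) of those with 10 or more. Even among junctions with 20 or more reads, 22 of 808 were absent.

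**Figure D1:**
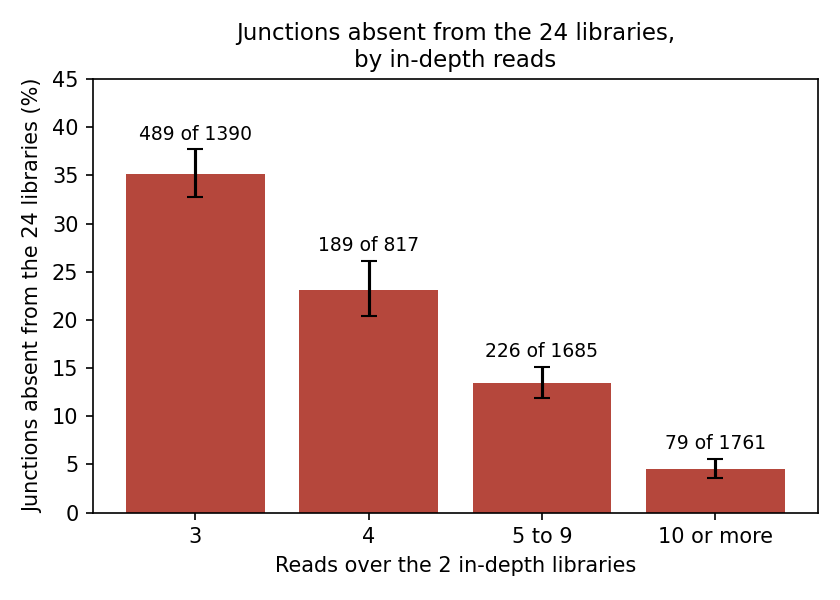
Share of in-depth junctions absent from the 24 libraries (vertical axis, percent) by their reads over both in-depth libraries (horizontal axis); error bars are 95% Wilson intervals and the numbers above the bars are junctions. The share is 35.2% at 3 reads and 4.49% at 10 or more.

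By type, 933 members were exonic and 50 intronic. Intronic circles made up 5.09% (3.88 to 6.64%) of the members and 3.06% (2.61 to 3.60%) of the 4670 junctions that also occurred in the 24 libraries and had 3 or more in-depth reads, referred to here as the seen junctions. In the young library alone, counting junctions with 3 or more reads there, the shares were 4.10% (2.79 to 5.98%) and 2.11% (1.68 to 2.64%). In the old library alone they were 7.49% (4.90 to 11.3%) and 4.09% (3.36 to 4.97%). By read number, intronic shares of members and seen junctions were 6.13 and 3.77% at 3 reads and 4.23 and 3.82% at 4. They were 4.42 and 2.60% at 5 to 9 reads and 2.53 and 2.79% at 10 or more. Junctions are not replicates, so these shares stand side by side with no test between them.

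The exonic members had a median of 3 exons, as did the seen junctions. Single-exon circles were 48 of 933 (5.14%), and circles of 5 or more exons were 296 of 933 (31.7%, 28.8 to 34.8%), against 24.0% (22.7 to 25.2%) of the seen. The share with 5 or more exons was 29.9% in the young library alone (seen 23.1%) and 30.8% in the old library alone (seen 21.6%). At equal read numbers the shares were 34.6% against 28.3% among junctions with 3 reads. They lay closest at 4 reads, at 29.8% (23.6 to 36.9%) against 26.8% (23.4 to 30.5%). At 5 to 9 reads they were 28.2% (22.7 to 34.6%) against 23.2% (21.1 to 25.5%). Among junctions with 10 or more they were 28.6% (19.7 to 39.5%) against 21.3% (19.4 to 23.3%).

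**Figure D2:**
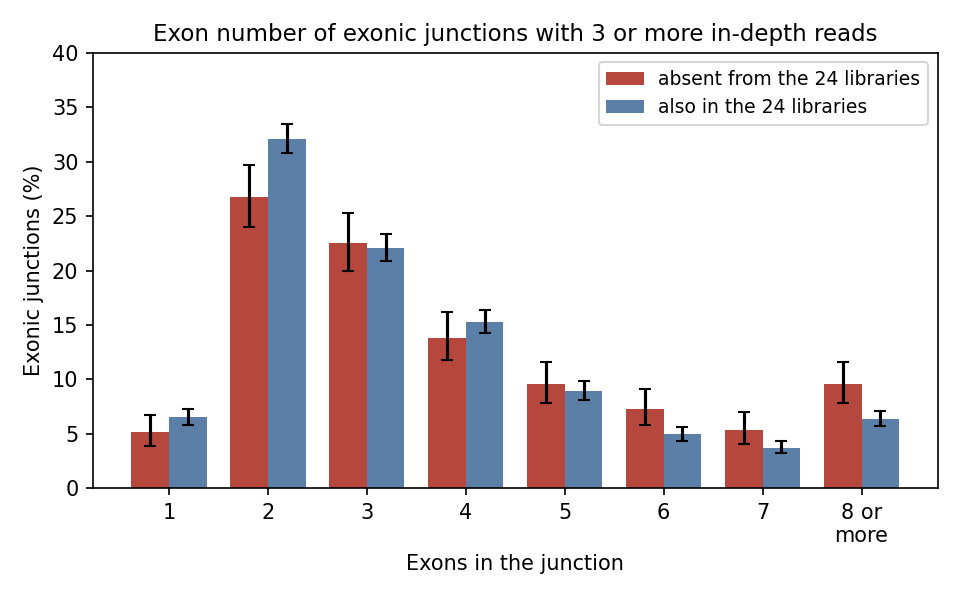
Exon number of exonic junctions with 3 or more in-depth reads: percent of junctions (vertical axis) by number of exons (horizontal axis), for the 933 absent from the 24 libraries and the 4527 also in them, with 95% Wilson intervals. Circles of 2 exons are 26.8% of the former and 32.1% of the latter, and circles of 8 or more exons 9.54% and 6.36%.

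The spliced length of exonic members had a median of 427 nt (95% interval of the median 402 to 446; range 122 to 5891), and that of seen junctions 394 nt (385 to 402). The genomic span from acceptor to donor had a median of 7495 bp (6836 to 8379) in members and 5847 bp (5540 to 6174) in seen junctions. By read number, the median spliced lengths of members and seen junctions were 436 and 427 nt at 3 reads, 403 and 411.5 nt at 4, 431 (389 to 487) and 392 nt (380 to 408) at 5 to 9, and 372 and 370 nt at 10 or more. The median spans were 8192 (6888 to 9657) and 6508 bp (5577 to 7467) at 3 reads, 6752 (5568 to 8521) and 6105.5 bp (5155 to 7407) at 4, 6942.5 (5507 to 8392) and 5772 bp (5282 to 6199) at 5 to 9, and 10741 (4945 to 14850) and 5542 bp (5158 to 6165) at 10 or more. The introns beside the circle, as the files give them, had medians of 5966 bp (5198 to 6925) upstream and 5864 bp (5308 to 6536) downstream of members. For seen junctions these medians were 6911 bp (6610 to 7289) and 6471 bp (6181 to 6772). By read number, upstream medians of members and seen junctions were 5992 and 6642.5 bp at 3 reads and 4774 and 5485 bp at 4. They were 6310.5 and 6614.5 bp at 5 to 9, and 9454 and 8229.5 bp at 10 or more. Downstream they were 5632 and 5385 bp at 3 reads, 4768 and 5938 bp at 4, and 6195 and 5809 bp at 5 to 9. At 10 or more, the downstream medians were 12578.5 (7820 to 16279) and 8164.5 bp (7447 to 8673). The order was thus not the same in all classes.

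The extremes show how wide the members ranged. The member with the most exons was chr11:26696009-26920373 on the minus strand (rheMac2 coordinates, as for all below), with 29 exons of host ENSMMUT00000032537 over 224365 bp and 4335 nt when spliced. It had 5 reads in the old library and 0 in the young. The longest spliced member was chr1:133995849-134085962 (minus strand), 8 exons and 5891 nt, with 4 reads in the old library only. Both used an acceptor and a donor that other junctions of the 24 libraries also used. The shortest was chr19:9623145-9623428 (plus strand), 2 exons and 122 nt, with 3 reads in the young library only.

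The 50 intronic members had a higher median length than the seen intronic circles. It was 461 nt (249 to 777; range 134 to 3285) against 185 nt (170 to 208) for the 143 seen. The intronic member with the most reads, chr1:220293247-220294643 (minus strand, 1397 nt), had 12 reads in the old library (exact Poisson interval 6.20 to 20.96) and 0 in the young. Lengths over 1000 nt occurred in 14 of the 50 members and in 11 of the 143 seen. The median was 274 nt for the 25 intronic members with 3 or more reads in the young library (seen 174 nt) and 670 nt for the 20 in the old library (seen 172 nt). By read number, the medians of members and seen were 493.5 (30 members) and 238.5 nt at 3 reads, and 834 (8) and 229 nt at 4. At 5 to 9 reads the order was reversed, at 151.5 (10 members) and 174.5 nt, and only 2 members had 10 or more reads.

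The inner ends of the intronic members lay where lariat branch points are found. The distance from the junction to the acceptor end of the intron had a median of 23 nt (21 to 26) and was between 10 and 50 nt in 41 of 50. For seen intronic junctions the median was 24 nt (23 to 25), with 127 of 143 between 10 and 50 nt. The 5 intronic members with the most reads stopped 17, 29, 18, 25 and 26 nt before the end of introns of 1414, 215, 540, 159 and 1307 nt.

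Some intronic members differed by only a few bases from a circle the 24 libraries did hold. Of the 50, 15 (30%, 19.1 to 43.8%) began at the same donor as an intronic junction of the 24 libraries and differed from it at the branch-point side, by a median of 2 nt (1 to 23). An example is chr16:10269173-10269358 (minus strand, 186 nt, host ENSMMUT00000013651), with 10 reads in the young library and 0 in the old. A circle that ended 2 nt away, at 10269171, had 12 reads in 4 of the 24 libraries and 4 and 8 reads in the young and old in-depth libraries. Both ends lay within 5 nt of a junction of the 24 libraries in 10 of the 50 intronic members and in 0 of the 933 exonic ones. Without these 10, intronic circles would be 4.11% of the members.

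Splice ends separated the exonic members into those that paired known ends anew and those with ends of their own. Both ends were used by other exonic junctions of the 24 libraries in 154 of 933 (16.5%, 14.3 to 19.02%), only the acceptor in 213 (22.8%), only the donor in 205 (22.0%) and neither in 361 (38.7%, 35.6 to 41.9%). For seen junctions, leaving out the junction itself, both ends were used by others in 30.5% (29.2 to 31.9%) and neither in 23.1% (21.9 to 24.3%). The neither share was 39.0% in the young library alone (seen 21.9%) and 40.5% in the old library alone (seen 21.04%). Among the 418 members with 1 known end, the other end lay a median of 5256 bp from the nearest known end of its kind, and within 50 bp of one in 3. With ends counted as known only where a junction had 2 or more reads over the 24 libraries, both ends were known in 5.89% of exonic members.

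Of the 983 members, 312 (31.7%, 28.9 to 34.7%) were assigned to an Ensembl transcript as host and 671 to a transcript that the authors assembled from the linear reads. The Ensembl share was 39.9% (38.5 to 41.3%) among seen junctions, 32.6% among members of the young library alone (seen 40.7%) and 26.6% among those of the old library alone (seen 39.8%). Of the 312, 194 (62.2%, 56.7 to 67.4%) had a host that the 24 libraries also named on the same chromosome and strand, against 79.3% (77.4 to 81.0%) of seen junctions with an Ensembl host. The names of assembled hosts could not be compared in this way. For junctions present in an in-depth library and in one of the 24 the assembled name was the same in 0 of 22269 pairs, while it matched in 35.1% of junctions shared by both in-depth libraries and in 33.1% of pairs between libraries of the 24. The in-depth files thus carried other assembled names than the 24, and whether a junction was missed in the 24 because its exons were not assembled there was not tested.

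The members with 10 or more reads had the fewest Ensembl hosts and the most unknown ends of the 4 classes by reads. The Ensembl share was 34.8% (30.7 to 39.1%) for members with 3 reads and 15.2% (8.91 to 24.7%) for the 79 with 10 or more, while in seen junctions it was 38.6% and 40.9%. Neither end was known in 38.3% of exonic members with 3 reads and in 48.1% (37.3 to 59.0%) of those with 10 or more, while in seen junctions the share was 27.9% and 19.9%. High reads and absence together are what the rule selects, so these values describe its outcome.

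**Figure D3:**
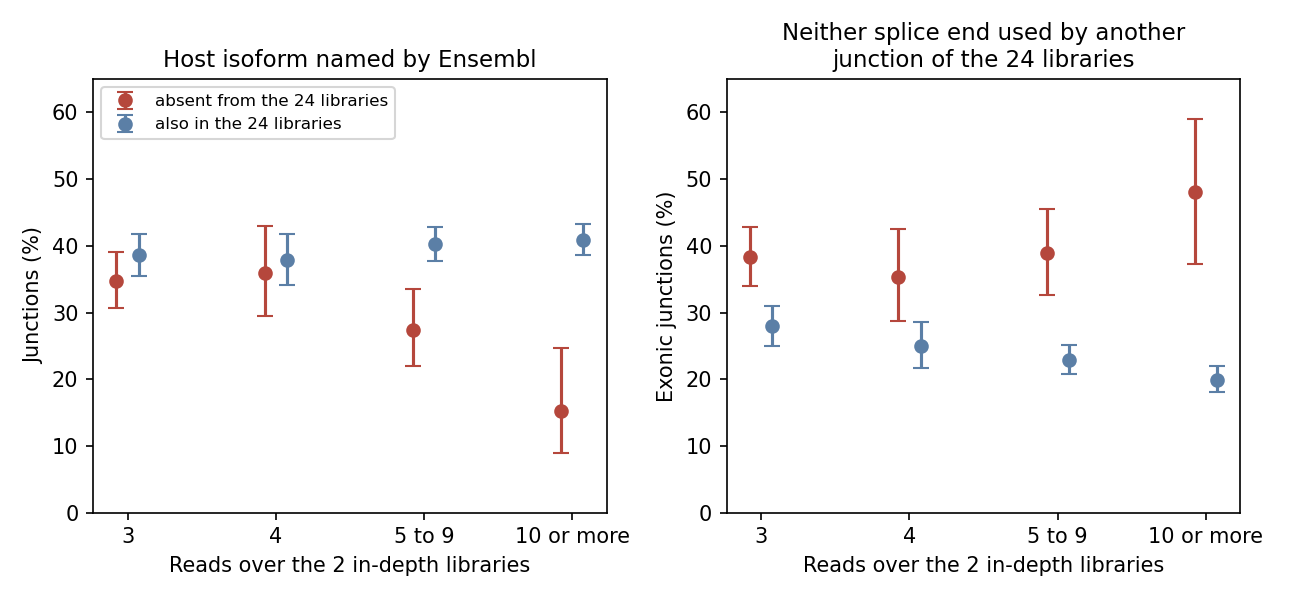
Percent of junctions with an Ensembl host isoform (left) and of exonic junctions with neither splice end used by another junction of the 24 libraries (right), by reads over both in-depth libraries, with 95% Wilson intervals. Among members the Ensembl share is 34.8% at 3 reads and 15.2% at 10 or more, and the share with no known end is 38.3% and 48.1%.

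Where the host could be placed by position, most members belonged to loci the 24 libraries already knew, but a smaller share than of seen junctions. The span of 690 of 983 (70.2%, 67.3 to 73.0%) overlapped a junction of the 24 libraries on the same strand, as did 663 of 933 exonic and 27 of 50 intronic members. For seen junctions, leaving out the junction itself, the share was 82.4% (81.3 to 83.5%). Among intronic circles it was 54% of members and 81.8% of the seen. When overlapping junctions of 1 strand over all 26 libraries were joined into loci, the members fell into 824 of 9677 loci, and 109 of these held 2 or more members. A total of 727 members lay in loci with reads in the 24 libraries. There the member carried a median of 18.8% of the in-depth reads of its locus, and 266 of the 727 (36.6%) were the junction with the most in-depth reads of their locus, ties included.

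The other 256 members (26.04%) lay in 245 loci without a read in the 24 libraries. In 167 of these 256 the member was the one in-depth junction of its locus. They were smaller circles, with medians of 2 exons, 325 nt spliced and a span of 3301 bp for exonic ones, against 4 exons, 470 nt and 9582 bp for exonic members in loci that the 24 libraries held. A short span also overlaps fewer junctions, so span and locus status are not independent. In 85 of the 245 loci both in-depth libraries had reads.

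The reads of 468 members (47.6%, 44.5 to 50.7%) came only from the young in-depth library, those of 168 (17.1%, 14.9 to 19.6%) only from the old one, and 347 had reads in both. Over all 5653 junctions with 3 or more in-depth reads the background was 27.8% with all reads in the young library and 10.6% with all reads in the old one. Both shares were thus above the background in members, whose reads are fewer: the median was 4 reads for members and 7 for seen junctions. At 3 reads the young-only share was 53.0% in members and 42.8% in seen junctions, and at 10 or more it was 40.5% (30.4 to 51.5%) and 8.03% (6.82 to 9.42%). For the old-only share the corresponding values were 19.2% and 20.5% at 3 reads, and 15.2% (8.91 to 24.7%) and 2.85% (2.16 to 3.76%) at 10 or more.

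Of the member reads 3621 were young and 1553 old, so the young library gave 70.0% of them, while it gave 63.3% of all in-depth junction reads. Scaled to the junction reads of each library, the young part was 57.5%. The 347 members with reads in both divided evenly: the share of junction reads was higher in the young library for 174 and in the old for 173, with a median log2 ratio of 0.15.

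**Figure D4:**
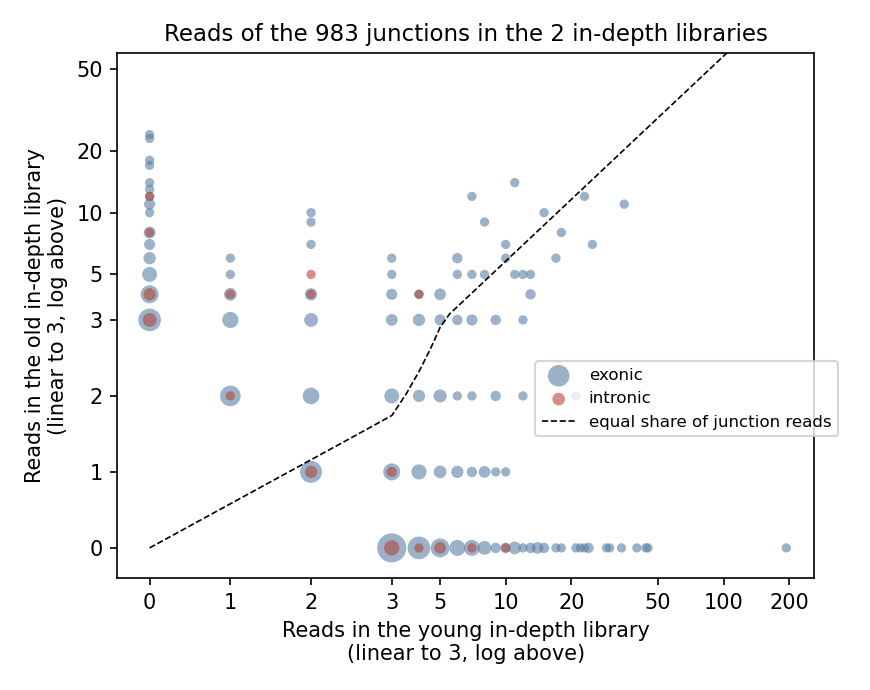
Reads of each member in the young (horizontal) and old (vertical) in-depth library, on axes that are linear to 3 and logarithmic above; the point area grows with the number of members at that position and the dashed line marks equal shares of the junction reads. Points on the axes are the 468 members read only in the young library and the 168 read only in the old, and the member at 194 young and 0 old reads stands apart.

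By the library that held the reads, structure varied as follows. Young-only, old-only and shared members had median exon numbers of 3, 3 and 4 and median spliced lengths of 409, 412.5 and 461 nt. Intronic circles were 4.70% (3.12 to 7.01%), 9.52% (5.95 to 14.9%) and 3.46% (1.99 to 5.95%). Both ends were known in 15.7% (12.6 to 19.4%), 11.2% (7.10 to 17.2%) and 20.0% (16.1 to 24.6%) of the exonic ones. Ensembl hosts were 34.4% (30.2 to 38.8%), 27.98% (21.7 to 35.2%) and 29.97% (25.4 to 35.0%).

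One member exceeded all others in reads. The circle chr4:53822249-53863447 (plus strand), 6 exons and 372 nt of host ENSMMUT00000017929, had 194 reads (168 to 223) in the young library, 32.0 per 10000 junction reads, and 0 in the old, which allows up to 0.852 per 10000. The next member had 46 reads. Its acceptor and donor were both in use in the 24 libraries. From the same acceptor the longer circle to 53875750 had 360 reads in 22 of the 24 libraries and 320 and 52 reads in the young and old in-depth libraries. The shorter circle to 53842943 had 31 reads in only 2 of the 24 libraries but 364 and 101 reads in the in-depth ones. Among the 24, the library of 0.005 years had 53 reads of the longer circle, 0 of the shorter circle and 0 of the member. Its locus as a whole was read in 23 of the 24 libraries, at 42.9 to 144 reads per 10000 (median 74.4) in the young, 8.16 to 104 (33.5) in the middle-aged and 0 to 102 (50.7) in the old, and the groups overlapped. The edgeR quasi-likelihood test with Benjamini-Hochberg adjustment gave a log2 fold change of -0.67 ± 0.52 (SE) in old against young for the locus (adjusted p = 0.75), and -0.07 without the young monkeys under 1 year.

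Of the remaining 9 of the 10 members with the most reads, 6 also had reads only in the young library. They were chr7:164269803-164283671 (plus strand, 11 exons, 45 reads), chr16:65212136-65224043 (plus, 4 exons, 44), chr15:90413587-90415753 (minus, 2 exons, 40), chr10:31828668-31828919 (plus, 2 exons, 34), chr4:160236868-160260506 (plus, 3 exons, 30) and chr13:116497375-116502319 (minus, 2 exons, 29). Each of the 6 had 0 reads in the old library. The other 3 were read in both libraries. The circle chr2:78497247-78504399 (minus, 3 exons, host ENSMMUT00000046475) had 35 young and 11 old reads, 5.77 and 3.12 per 10000. The circle chr3:47575551-47576418 (minus, 2 exons) had 23 and 12 reads, 3.79 and 3.41 per 10000, and chr17:10635889-10650951 (plus, 3 exons) had 25 and 7, 4.12 and 1.99 per 10000.

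Of these 10, only the top member and the chromosome 7 circle had both ends in use in the 24 libraries, and the chromosome 15 circle shared its acceptor. That circle differed from a junction of the 24 libraries by its donor alone, at 90413587 in place of 90413617. The neighbour had 6 reads in 3 of the 24 libraries and 16 and 5 in the in-depth ones. In 5 of the 10 the span overlapped no junction of the 24 libraries at all. These were the circles on chromosomes 16, 3, 10, 17 and 13, all with hosts from the assembly.

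The old-only members with the most reads clustered on chromosome 12. Of the first 5, 3 came from 1 host, PREDICTED.56666.9, on the minus strand: chr12:42363405-42368938 (9 exons, 2915 nt, 24 reads, 15.4 to 35.7), chr12:42360787-42361455 (2 exons, 567 nt, 23 reads) and chr12:42369153-42369431 (1 exon, 279 nt, 14 reads). None had a read in the young library. A circle that spans the first and second of them, from 42360787 to 42368938, had 33 reads in the old in-depth library, 0 in the young one and 1 read over the 24 libraries, in the library of 40.1 years. The other 2 of the first 5 were chr12:94310801-94318094 (plus, 6 exons, 18 reads) and chr19:8282223-8283576 (minus, 2 exons, 17 reads), neither with an end in use in the 24 libraries.

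The locus that holds these 3 circles, chr12:42191162-42427598 on the minus strand, was also the one with the most members, 14. Of the 14, 5 were intronic, among them chr12:42275686-42276207 (522 nt, 8 old and 0 young reads) and chr12:42257003-42258283 (1281 nt, 2 young and 5 old). Another host of the locus, PREDICTED.476678.2, had 6 members that went the other way, with 22 young and 0 old reads in sum. Of these, the intronic circle chr12:42355050-42355516 (467 nt) had the most, 5 young and 0 old. The 14 members of the locus summed to 27 young and 86 old reads, and all its junctions to 161 and 214, or 26.5 and 60.8 per 10000. All 24 libraries had reads there. The level was 6.82 to 64.4 per 10000 (median 28.9) in the young, 8.70 to 113 (44.1) in the middle-aged and 10.8 to 90.1 (37.6) in the old, with overlapping groups. Among the 24, the libraries of 0.005 and 40.1 years stood at 20.96 and 90.1 per 10000. The log2 fold change in old against young was 0.41 ± 0.55 (SE; edgeR, adjusted p = 0.88). The direction turned, at -0.14, without the young monkeys under 1 year, and the value was -0.0016 without the libraries of 0.005 and 40.1 years.

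The second locus by members, chr7:164239377-164283671 on the plus strand, held 13 members, all exonic, 3 to 22 exons long, and all with reads only in the young library (118 in sum). Its host PREDICTED.489728.1 had the most members of any isoform, 10. The circles nest within each other and share ends: 6 of the 13 end at donor 164283671 and 4 at donor 164262737. All junctions of the locus had 527 reads in the young in-depth library, 86.8 per 10000, and 0 in the old one. In the 24 libraries, where the rule requires the 13 members to be absent, the other junctions of the locus were read: 53 reads occurred at 0.003 years, 65 at 0.005 years and 9 at 0.03 years. These are 181, 105 and 11.4 reads per 10000. The 3 young monkeys of 2.8, 4.06 and 6 years, all 11 middle-aged and all 7 old monkeys had 0 reads. The level in the young libraries together was at least 45.7-fold higher than in the old, with 3 reads over the old group as the floor. This bound was 29.8 without the library of 0.003 years, 28.8 without that of 0.005 years and 59.5 without that of 0.03 years. The test across loci gave an adjusted p of 0.49 (edgeR quasi-likelihood, unadjusted p = 0.039) with junction totals as library sizes and 0.032 with TMM normalization. The filter asks for a read in 3 or more libraries, so the locus was tested only because of the 3 monkeys under 1 year. It was not tested in the fits without the library of 0.005 years or without the young under 1 year. No conclusion is drawn from these p-values for that reason.

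**Figure D5:**
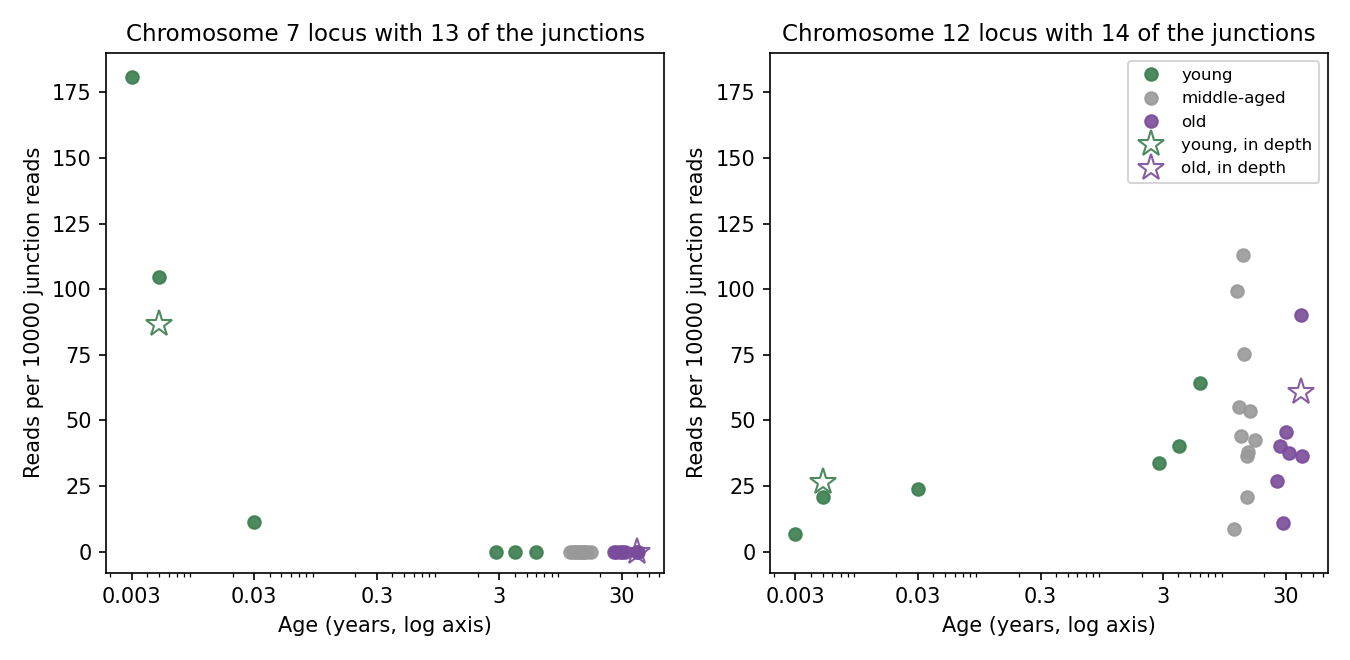
Reads per 10000 junction reads of each library (vertical axis) against age in years (horizontal, log axis) at the chromosome 7 locus with 13 members and the chromosome 12 locus with 14; circles are the 24 libraries and stars the in-depth ones. At the chromosome 7 locus only the 3 monkeys under 1 year and the young in-depth library are above 0, and at the chromosome 12 locus all libraries are.

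Reads in the 24 libraries only under 1 year were uncommon. Of the 304 member-holding loci with 10 or more reads over the 24 libraries, 2 were read only there, as were 4 of all 1574 loci with that many reads. The second, chr15:25205854-25242661 (plus strand), was chosen after its values were seen. It had 24 reads in the library of 0.005 years and 0 in the other 23, but 160 young and 29 old in-depth reads, and its 1 member spans the whole locus with 3 young reads.

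The next 2 other loci by members had reads in 22 and in 10 of the 24 libraries. The locus chr12:15128759-15405030 (minus strand) held 7 members with 4 young and 28 old reads, among them chr12:15141479-15142136 of host ENSMMUT00000012054 (2 exons, 2 young and 9 old reads). Its level was 15.0 to 58.0 per 10000 (median 31.9) in the young and 0 to 46.4 (10.8) in the old, overlapping, with a log2 fold change of -1.11 ± 0.57 (SE; edgeR adjusted p = 0.52). All its junctions had 208 young and 177 old in-depth reads, 34.3 and 50.3 per 10000, which is the opposite order. The locus chr14:127181642-127298298 (minus strand) held 6 nested members of 4 to 10 exons with 42 young and 14 old reads, at a log2 fold change of -2.39 ± 0.95 (SE; edgeR adjusted p = 0.32). That value was -1.34 without the libraries of 0.005 and 40.1 years and -0.31 without the young monkeys under 1 year. For host PREDICTED.108061.2, with 4 members, the one with the most reads was chr4:132002263-132004057 (minus strand, 2 exons, 6 young and 1 old reads).

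The rule used the 24 libraries to require that the members be absent from them, and the other reads of the hosts were compared there between old and young monkeys. By isoform name, reads of 1 junction often stand under different names in different libraries, and on data simulated with the spread of these counts the test recovered none of the changed isoforms. Of 1260 host isoforms tested, 13 passed (1.03%). Of the 280 Ensembl hosts of members, 71 could be tested, and 1 of the 71 was lower and 0 were higher in the old, with a median log2 fold change of 0.01 against 0.00 over all isoforms tested. The 1 that passed, ENSMMUT00000046660, had 0 reads in all 7 old monkeys. In the middle-aged it had 8.70, 11.6 and 18.2 per 10000 at 11.3, 15.43 and 16.93 years and 0 at the other ages. In the young it had 0 reads at 2.8 and 4.06 years and 11.3 to 27.3 per 10000 in the other 4, so the groups overlapped at 0 (edgeR, log2 fold change -5.42 ± 1.53 SE, adjusted p = 0.043). In the other settings the log2 fold change was -4.19 to -5.52, and the adjusted p was 0.052 to 1. Its member is chr11:47600146-47608537 (plus strand, 3 exons, 6 young reads and 1 old).

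By locus, which does not rest on isoform names, 4 of 1566 passed (0.255%; 0.319% with TMM normalization), and of 303 tested loci with members 1 was higher in the old. The median log2 fold change was -0.09 over the 303 and 0.00 over all. The locus that passed, chr9:124281204-124306273 (minus strand), had 0 reads in all 6 young monkeys. In the middle-aged it had 0 to 3.26 per 10000. In the old it had 0 reads in 3 and 3.68 to 43.4 per 10000 in the other 4 (edgeR, log2 fold change 4.68 ± 1.14 SE, adjusted p = 0.019), and it passed also with TMM normalization (4.50, adjusted p = 0.032) and without the libraries of 0.005 and 40.1 years (4.89, adjusted p = 0.049). Without the young monkeys under 1 year the value was 4.61 and the adjusted p 0.32. The filter asks for 10 or more reads in sum, which the locus reached only through its 18 old reads. No conclusion is drawn from these p-values for that reason. In the in-depth libraries the locus had 22 young and 10 old reads, 3.62 and 2.84 per 10000. Its 2 members had reads only in the young one, 7 in all. Among the 24, the library of 0.005 years had 0 reads there, which allows up to 4.84 per 10000.

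Another member-holding locus passed in other settings alone. The locus chr16:10249538-10273703 (minus strand), which holds the intronic circle chr16:10269173-10269358 of 10 young reads, was at 1.61 to 68.6 per 10000 (median 20.6) in the young and 0 to 14.1 (6.14) in the old, overlapping. Its log2 fold change was -2.02 ± 0.62 (SE; edgeR adjusted p = 0.094). It was -2.59 (adjusted p = 0.049) without the libraries of 0.005 and 40.1 years, where 0.275% of loci passed, and -2.84 (adjusted p = 0.032) without the young monkeys under 1 year, where it was the 1 locus of 1369 that passed (0.073%). With TMM normalization it was -1.94 (adjusted p = 0.21). In the in-depth libraries the locus had 53 young and 91 old reads, 8.73 and 25.8 per 10000, which is the opposite order. The old in-depth value lay above the highest value of the old group, 14.1.

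Reads at all member-holding loci together made up 23.1 to 27.4% (median 24.4%) of the junction reads in the young monkeys, 19.1 to 25.2% (23.3%) in the middle-aged and 20.9 to 24.0% (22.5%) in the old. They were 32.3% of the young and 28.4% of the old in-depth library, whose own reads define these loci.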

How the data were processed

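RNase R-treated RNA of 26 muscle libraries was analysed. The deposited files hold, per library, the read count of each back-splice junction. Per the labels and methods, the authors trimmed adapters, aligned reads to rheMac2 with TopHat2 2.0.14 (Bowtie2 2.2.4), assembled linear transcripts with Cufflinks 2.2.1, and annotated fusion reads with CIRCexplorer against the assembly and Ensembl. The library kit did not mark strand, so the strand of a junction is that of its host, and a gene and its antisense partner cannot be told apart. CIRCexplorer lists a junction only where its ends match the annotation, so absence can reflect annotation as well as reads. PCR duplicates have no molecular identifiers.

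Junctions were matched on chromosome, start, end and strand, and starts are printed 1-based. Where a junction had different exon structures in the in-depth libraries (32 members), 1 was used. Shares carry 95% Wilson intervals, medians distribution-free intervals, and single counts exact Poisson intervals (Python 3.11.15, scipy 1.17.1). No test compares the in-depth libraries or members with other junctions. Reads per host isoform or locus in the 24 libraries were tested with edgeR 4.0.16 (R 4.3.3; robust quasi-likelihood, 3 age groups in 1 fit, total junction reads as library size, hosts with 10 or more reads in sum and a read in 3 or more libraries, Benjamini-Hochberg at 0.05) and DESeq2 1.42.0 as an alternative; the edgeR test was checked on simulated data, where at the spread of the real isoform counts it recovered none of the changed isoforms and by locus it recovered part of the changed loci. The labels do not number replicates.

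Named junctions are the 10 members with the most reads, the 5 with the most reads only in each in-depth library, the 5 intronic ones with the most reads, those with the most exons and the greatest and smallest length, and the first of the 5 hosts with the most members. The rule, members and lists were chosen with earlier results of these data known. Gene symbols, muscle gene lists, markers and sequences are not used here, because the reference tables used here do not pair the transcript identifiers with symbols and no rheMac2 sequence was at hand.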

Additional observations from a re-analysis of the deposited data

Results flagged for a closer look

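At the chromosome 12 locus from 15128759 to 15405030, which holds 7 of the members, the old monkey of 27 years stood apart from the other 6 old monkeys with 46.4 reads per 10000 junction reads (23 reads). The others ranged from 0 to 14.7. The gap to the next value was 0.683 of the range of the group. Dixon's 95% limit, which this gap passes, is passed by chance in about 1 group in 20 of normally distributed values. That rate is for 1 group taken alone, and this group is reported because it passed the limit.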

How the results depend on the processing

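The 22 values not named here stayed within their interval, or within 1.5 times for counts. With a minimum of 2 reads there were 2501 members, 7.52% of them intronic, with a median spliced length of 458 nt, 54.3% young-only, 24.9% old-only and 67.9% of reads young. With a minimum of 5 reads there were 305 members, 40.3% young-only, 12.5% old-only and 72.7% of reads young. Of these members 15.1% had a host name known from the 24 libraries, against 19.7% at the minimum of 3. Both shares are of all members and count every assembled host as not known, although those names could not be compared. Members read in both in-depth libraries had medians of 4 exons and 461 nt. The host counted as known in 70.2% of members by overlap. By name it was known in 15.06% of all members from junctions with 2 or more reads. Among those with an Ensembl host, a subset chosen after seeing the data, it was known by name in 62.2%. Both ends were known in 5.89% with ends from junctions of 2 or more reads. Reads scaled to library totals were 57.5% young. The cause of these shifts was not tested.

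The 13 host isoforms that passed between old and young (edgeR; 253 at an unadjusted p under 0.05) became 4 with TMM normalization, 3 with only young and old in the fit, 5 without the young under 1 year and 3 without the libraries of 0.005 and 40.1 years. They became 0 with DESeq2 (13 at an unadjusted p under 0.05), 0 without the filter (edgeR, 2395) and 0 with 2 or more reads required in 12 libraries (edgeR, 0). By locus 4 passed. With settings chosen after seeing the data, 4 loci passed without the libraries of 0.005 and 40.1 years, 5 with TMM and 1 without the young under 1 year. The 1 member host among the 13 passed only in the fit as reported. No paired analysis was possible because the age groups hold different monkeys, 1 library per monkey. The in-depth libraries have no replicates, and at 3 to 4 reads, where 678 members lie, which library holds the reads is uncertain by counting alone.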
